A study of Mus musculus with 16 samples.

Results

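The annexin family around Anxa2 was described as 10 genes: the annexins Anxa1, Anxa2, Anxa3, Anxa4, Anxa5, Anxa6, Anxa7 and Anxa11, and the S100 proteins S100a10 and S100a11. The members were chosen by the log2 values of Anxa2, which were higher in liver tumours than in the liver beside them, and by kinship to it, so for every member the difference between tumour and adjacent liver is given as a description, without a p-value. Of the 10 genes, 9 were measured, among 23279 genes with a symbol on the array; S100a11 was not analysed here. All 9 measured members lay above the median of all values (a log2 value of 4.43) on at least 3 of the 16 arrays; Anxa1 did so on 13 and each of the others on 16.

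Liver RNA came from male mice aged 16 months, with 1 one-colour array per sample. Control liver came from 3 non-deleted mice, numbered 10, 11 and 12. Axin1-deleted mice carried Axin1 fl/fl and Alfp-Cre, a Cre recombinase expressed in embryonic hepatocytes, and develop liver tumours with age; cells in which this Cre is not expressed keep Axin1. Adjacent non-tumoral liver came from 5 deleted mice (81, 121, 123, 124 and 1931) and tumours from 6 (81, 90, 93, 121, 123 and 124). Mouse 121 gave 3 tumours, which were averaged, so that 6 tumour values entered each comparison. On the log2 scale the controls had Axin1 at 5.26 ± 0.20 (SD, n = 3), the adjacent livers at 4.20 ± 0.21 (SD, n = 5) and the tumours at 4.44 ± 0.31 (SD, n = 6), and every sample of a deleted mouse lay below every control. Hepatocyte markers (7 of the 8 listed) had a mean log2 level of 11.88 to 12.10 in controls, 11.88 to 12.12 in adjacent liver and 11.74 to 12.01 in tumours. The labels name the animals, so the p-values measure the spread between mice.

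Annexins are cytosolic proteins that bind acidic phospholipids of membranes when calcium rises, and they take part in vesicle traffic, membrane repair and links between membranes and actin. Several pair with small S100 proteins through their N-terminal tails: Anxa2 with S100a10, a family member that does not itself bind calcium, and Anxa1 with S100a11. The complex of Anxa2 and S100a10 is known to dock plasminogen and its activator at the cell surface. In healthy liver Anxa2 is low in hepatocytes and is found in bile duct, vessel and immune cells.

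Anxa2 (Entrez gene 12306) was the member with the largest difference. Its log2 values in control liver were 8.01 in mouse 10, 6.69 in mouse 11 and 5.70 in mouse 12. In adjacent liver they were 6.30 in mouse 81, 8.54 in mouse 121, 6.03 in mouse 123, 7.13 in mouse 124 and 6.44 in mouse 1931. In tumours they were 9.51 in mouse 81, 10.02 in mouse 90, 8.92 in mouse 93, 10.25 in mouse 123 and 9.10 in mouse 124, and the 3 tumours of mouse 121 were at 10.15, 8.95 and 9.23. All 8 tumour arrays thus lay above all 8 non-tumour arrays, although the lowest tumour, at 8.92, was close to the adjacent liver of mouse 121, at 8.54. The controls averaged 6.80 ± 1.16 (SD, n = 3), the adjacent livers 6.89 ± 1.01 (SD, n = 5) and the tumours 9.54 ± 0.52 (SD, n = 6). The tumour mean was 2.65 (SE 0.46) above adjacent liver, a 6.29-fold difference, and 2.74 (SE 0.53) above control liver. Between adjacent and control liver the log2 difference was 0.09 (SE 0.55, 95% confidence interval -1.08 to 1.27, limma adjusted p = 0.999), and this value turned to -0.32 without adjacent liver 121 and to -0.46 without control 12. In whole tissue, more cells of a type and more RNA per cell cannot be told apart.

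**Figure D1:**
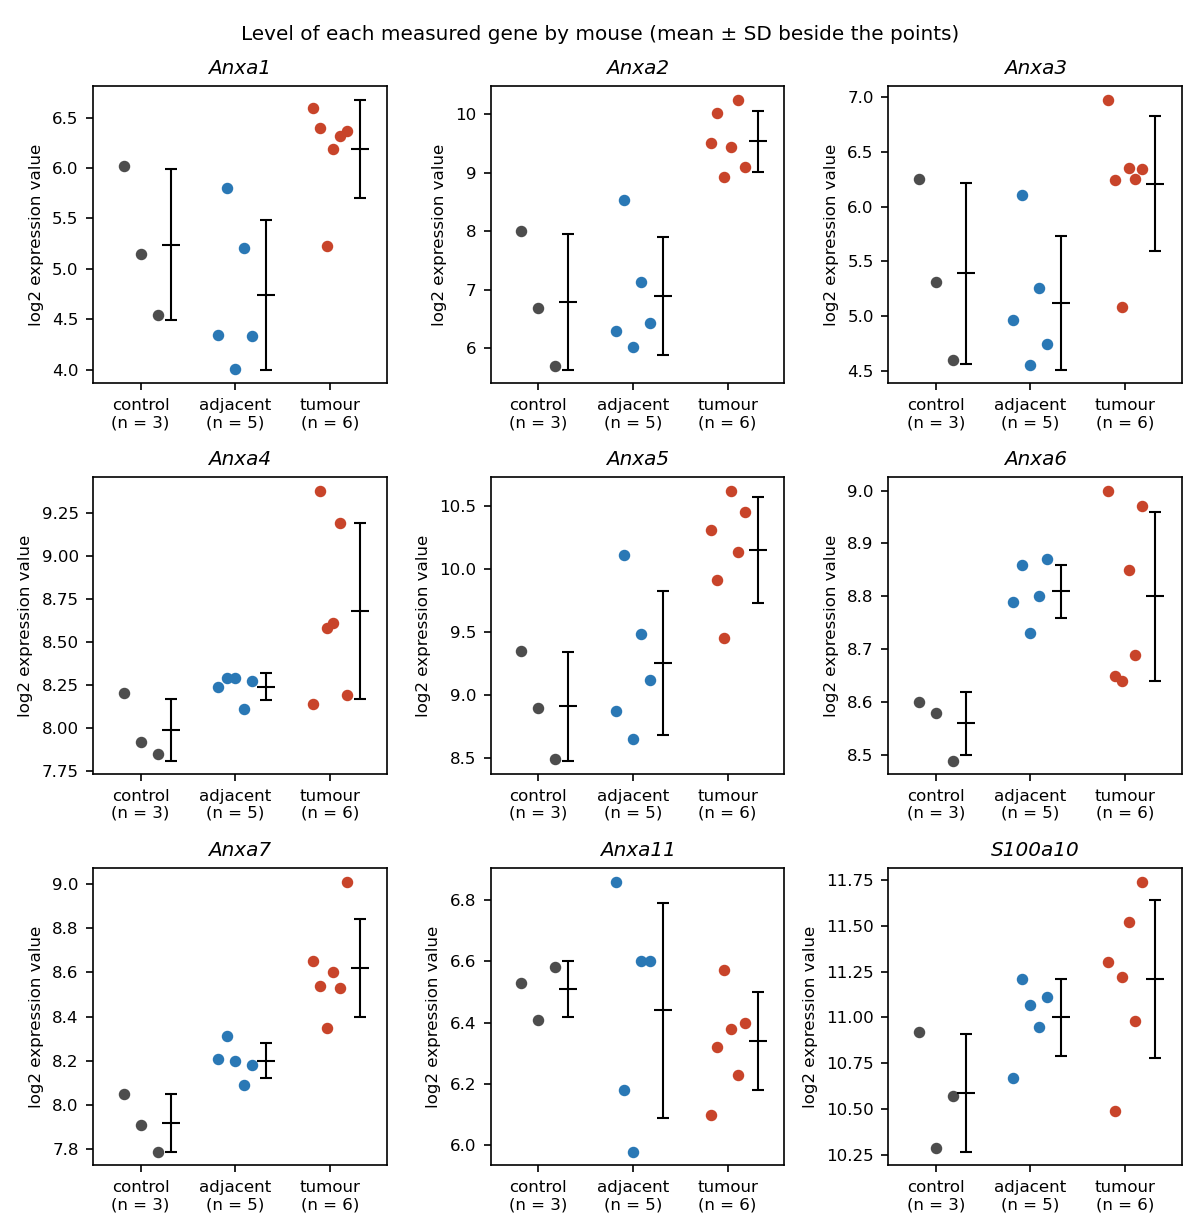
Log2 expression value (vertical axis) of the 9 measured genes in control liver, adjacent liver and tumours; each point is 1 mouse, the tumour point of mouse 121 is the mean of its 3 tumours, and bars beside the points are mean ± SD. Anxa2 and Anxa7 are the genes whose tumour points all lie above the adjacent points, while Anxa11 overlaps throughout.

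S100a10, the partner of Anxa2, differed less between the groups. It was at 10.92, 10.29 and 10.57 in control mice 10, 11 and 12. In adjacent liver it was at 10.67, 11.21, 11.07, 10.95 and 11.11 in mice 81, 121, 123, 124 and 1931. In tumours it ran from 10.49 in mouse 90 through a median of 11.26 to 11.74 in mouse 124. The 3 groups overlapped, and the lowest tumour, that of mouse 90, was among the highest for Anxa2. S100a10 was 0.21 (SE 0.19) above adjacent liver in tumours. This value was 0.10 without tumour 124, 0.12 without adjacent liver 81, 0.14 without tumour 121, 0.35 without tumour 90 and 0.41 with the mouse as a fixed replicate block in the 4 paired mice. Against control it was at 0.41 (SE 0.23, limma adjusted p = 0.999) in adjacent liver and at 0.62 (SE 0.23, limma adjusted p = 0.278) in tumours, neither past the threshold of an adjusted p under 0.05 over all genes; the first was 0.26 without control 11.

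Anxa1, which binds formyl peptide receptors and damps inflammation, and Anxa3, an annexin abundant in neutrophils, had wide ranges in every group. Anxa1 was at 6.02, 5.15 and 4.54 in control mice 10, 11 and 12, and at 4.34, 5.80, 4.01, 5.21 and 4.33 in adjacent livers 81, 121, 123, 124 and 1931. Its tumour values ran from 5.23 in mouse 93 through a median of 6.34 to 6.60 in mouse 81. With mouse 121 at the mean of its 3 tumours, all tumours but that of mouse 93 lay above every non-tumour liver. Anxa3 was at 6.25, 5.31 and 4.60 in the controls and at 4.96, 6.11, 4.55, 5.26 and 4.74 in the adjacent livers, in the same order of mice. Its tumour values ran from 5.08 in mouse 93 through a median of 6.30 to 6.98 in mouse 81. Against adjacent liver the tumour means were 1.45 (SE 0.34) higher for Anxa1 and 1.08 (SE 0.35) higher for Anxa3. Against control liver they were at 0.95 (SE 0.40, limma adjusted p = 0.349) and 0.82 (SE 0.41, limma adjusted p = 0.434), not past the threshold. Without control 12 these values were 0.60 and 0.43, and without control 10 they were 1.34 and 1.25.

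Anxa5, which binds the phosphatidylserine that dying cells expose, had log2 values of 9.35, 8.90 and 8.49 in control mice 10, 11 and 12. The adjacent livers 81, 121, 123, 124 and 1931 were at 8.87, 10.11, 8.65, 9.48 and 9.12, and the tumours ran from 9.45 in mouse 93 through a median of 10.22 to 10.62 in mouse 121. Every tumour lay above every control, while adjacent livers 121 and 124 reached into the tumour range. The difference was 0.90 (SE 0.26) from adjacent liver and 1.24 (SE 0.31, limma adjusted p = 0.132) from control liver.

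Anxa4, an annexin of secretory epithelia, varied from tumour to tumour. It was at 8.2, 7.92 and 7.85 in the controls and within 8.11 to 8.29 in the 5 adjacent livers. The tumours of mice 90 and 123 were at 9.38 and 9.19, those of mice 121 and 93 at 8.61 and 8.58, and those of mice 124 and 81 at 8.19 and 8.14. The last pair lay inside the adjacent range. The tumour mean was 0.44 (SE 0.20) above adjacent liver and 0.69 (SE 0.24, limma adjusted p = 0.234) above control liver.

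Anxa7 and Anxa11 carry long N-terminal extensions that bind calcium-sensing partners. For Anxa7 the groups did not overlap in any of the 3 comparisons. It was at 8.05, 7.91 and 7.79 in controls 10, 11 and 12, and at 8.21, 8.31, 8.2, 8.09 and 8.18 in adjacent livers 81, 121, 123, 124 and 1931. Its tumour values ran from 8.35 in mouse 93 through a median of 8.57 to 9.01 in mouse 124. The steps were small: 0.28 (SE 0.14, limma adjusted p = 0.999) from control to adjacent liver, 0.42 (SE 0.11) from adjacent liver to tumour, and 0.70 (SE 0.13, limma adjusted p = 0.0705) from control to tumour. The last value missed the threshold and passed it without tumour 93 (adjusted p = 0.0248) or tumour 90 (adjusted p = 0.048). Over the 14 omissions of 1 mouse its adjusted p ran from 0.0248 to 0.308. Anxa11 overlapped in every comparison: controls were at 6.51 ± 0.09 (SD, n = 3), adjacent livers at 6.44 ± 0.35 (SD, n = 5) and tumours at 6.34 ± 0.16 (SD, n = 6). Its tumour mean differed from control by -0.17 (SE 0.17, limma adjusted p = 0.741).

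Anxa6, an annexin with a duplicated core, lay, like Anxa7, higher in both tissues of deleted mice than in control liver. It was at 8.60, 8.58 and 8.49 in controls 10, 11 and 12, from 8.73 to 8.87 in adjacent liver and from 8.64 to 9.00 in tumours, so that every deleted sample lay above every control. The differences from control were 0.25 (SE 0.12, limma adjusted p = 0.999) in adjacent liver and 0.24 (SE 0.11, limma adjusted p = 0.399) in tumours, not past the threshold. Tumour and adjacent liver were 0.01 apart on average (log2 difference -0.01, SE 0.10), and this sign changed with the processing.

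Counted over the 9 measured members, none passed between adjacent and control liver, where 0% of all 23279 genes were called (limma called 0 genes, while 1059 had an unadjusted p under 0.05). Their median log2 difference was 0.25, beside -0.01 over all genes. Between tumour and control liver 0 of 9 passed, where limma called 0.0258% of all genes, and the median was 0.70 beside -0.04. In that comparison the count was 1 without adjacent liver 121 (Anxa2, where 0.0387% of all genes were called), 1 without tumour 90 (Anxa7, 0.326%) and 3 without tumour 93 (Anxa2, Anxa5 and Anxa7, 1.04%). Calls of Anxa2 against control liver use the tumour arrays by which it was chosen, so they were favoured in advance. Between tumour and adjacent liver, the comparison behind the choice, 1 of 9 passed, Anxa2, where 0.155% of all genes were called, and nothing is read from this count. The median there was 0.44 beside -0.03. That count was 0 with the mouse as a fixed replicate block in the 4 mice that gave both tissues. It was also 0 without control 11, adjacent liver 81, 123, 124 or 1931, or the tumour of mouse 81, 121 or 123. Without tumour 93 it was 5 (Anxa1, Anxa2, Anxa3, Anxa5 and Anxa7), and calls over all genes rose with it, to 743 genes or 3.19%. Without both control 10 and adjacent liver 121, an omission chosen after the values were seen, the counts were 0 for adjacent against control liver, 1 for tumour against control (Anxa2, where 0.0387% of all genes were called) and 2 for tumour against adjacent liver (Anxa1 and Anxa2, 0.185%).

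By plain separation, 2 of 9 members (Anxa6 and Anxa7) lay higher in every adjacent than in every control liver, which 2.18% of all genes did. Anxa2, Anxa5, Anxa6 and Anxa7 lay higher in every tumour than in every control liver, 4 of 9 beside 2.11% of all genes. Anxa2 was chosen by the values of these same tumour arrays, so its place in this count was favoured in advance. Anxa2 and Anxa7 lay higher in every tumour than in every adjacent liver, 2 of 9 beside 1.12%, again in the comparison behind the choice. No member lay lower throughout in any comparison, which 2.04% of all genes did in adjacent against control liver, 3.08% in tumour against control and 1.11% in tumour against adjacent liver. The comparisons share samples, so they do not support each other.

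**Figure D2:**
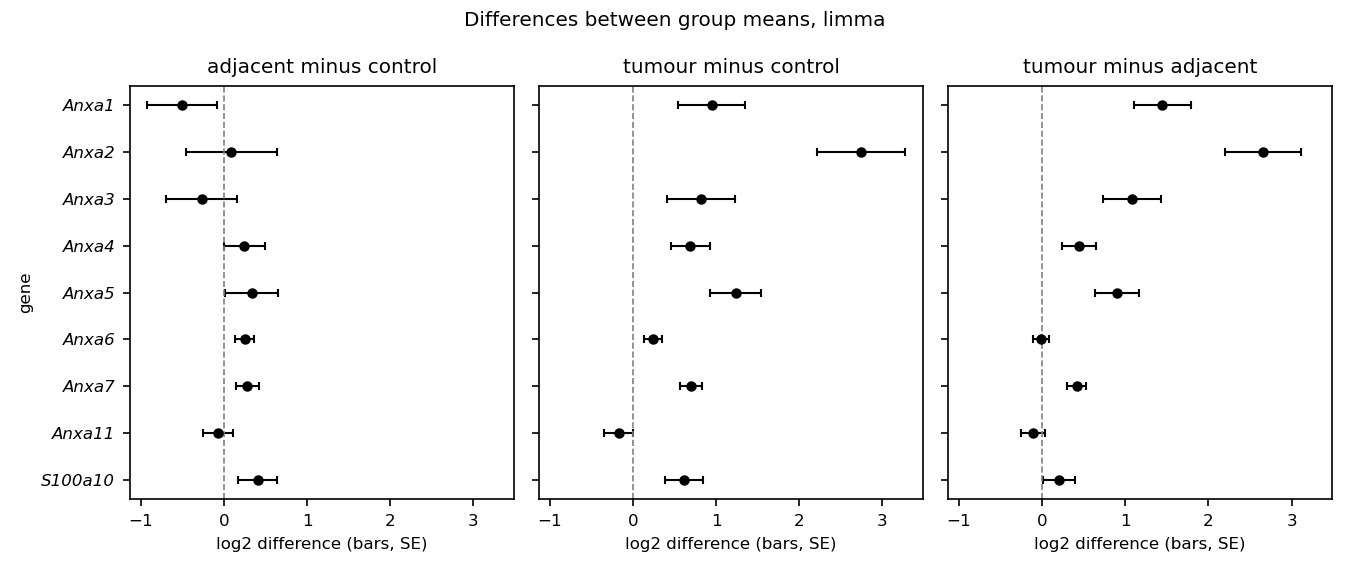
Log2 difference between group means (horizontal axis) for each of the 9 genes in 3 comparisons, with the SE of the limma fit as bars and a dashed line at 0. Adjacent and control liver differ by at most 0.50 in size, whereas Anxa2 stands at 2.74 and 2.65 in the tumour comparisons.

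In the 4 mice that gave both tissues, Anxa1, Anxa2, Anxa3, Anxa5 and Anxa7 were higher in the tumour than in the mouse's own adjacent liver in 4 of 4. The size of the step differed between mice. For Anxa2 it was 4.22 in mouse 123, 3.21 in mouse 81, 1.97 in mouse 124 and 0.91 in mouse 121, whose adjacent liver was the highest. Anxa1 showed a similar spread, with steps of 2.31, 2.27, 1.16 and 0.39 in the same order. Anxa3 stepped by 1.70, 2.02, 1.08 and 0.24. For Anxa5 the steps ran from 0.51 in mouse 121 to 1.48 in mouse 123, and for Anxa7 from 0.30 in mouse 121 to 0.92 in mouse 124. S100a10 and Anxa4 were each higher in 3 of 4 tumours, with steps of -0.09 to 0.78 and of -0.10 to 0.91. Anxa6 and Anxa11 were each higher in 2 of 4, from -0.04 to 0.21 and from -0.76 to 0.25.

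**Figure D3:**
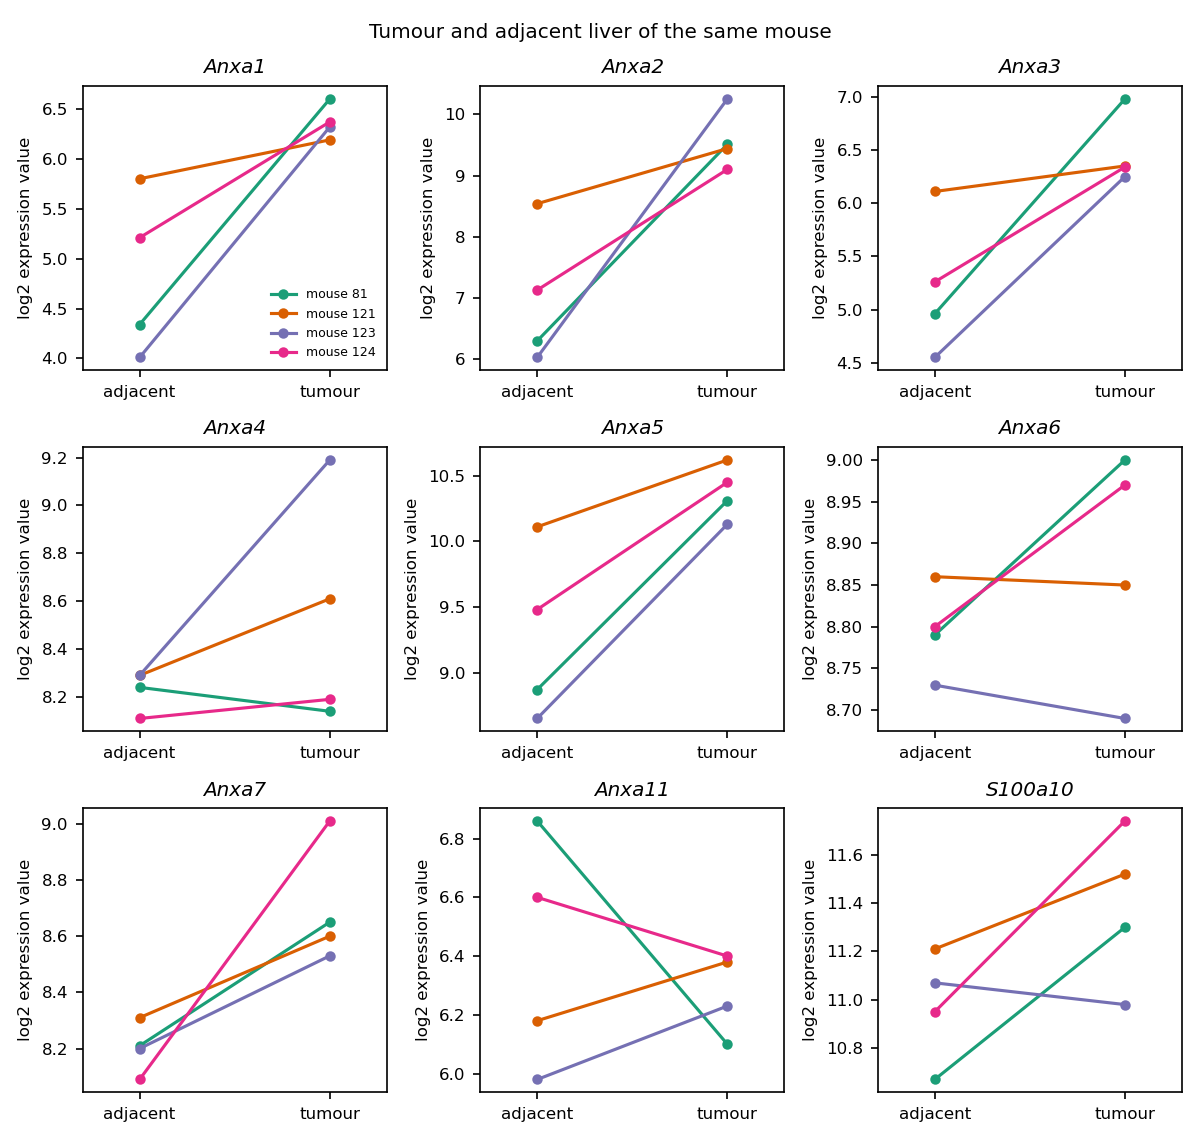
Log2 expression value (vertical axis) in adjacent liver and tumour of mice 81, 121, 123 and 124, 1 line per mouse, for each of the 9 genes; the tumour value of mouse 121 is the mean of 3 tumours. The Anxa2 lines all rise, by 0.91 to 4.22, while the Anxa11 lines cross.

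Tumour by tumour, that of mouse 93 was the lowest of the 6 for 6 of the 9 members: Anxa1, Anxa2, Anxa3, Anxa5, Anxa6 and Anxa7. The tumour of mouse 81 was the highest for Anxa1, Anxa3 and Anxa6 and the lowest for Anxa4 and Anxa11. The tumour of mouse 124 was the highest for Anxa7 and S100a10. The 3 tumours of mouse 121 differed among themselves for Anxa1 (5.45 to 7.01, SD 0.78), Anxa2 (8.95 to 10.15, SD 0.63) and Anxa3 (5.44 to 6.82, SD 0.79), as widely as the 6 tumour mice did (SD 0.49, 0.52 and 0.62). They were close together for Anxa5 (10.50 to 10.72, SD 0.11 beside 0.42 over the 6 mice) and Anxa11 (6.33 to 6.44, SD 0.06 beside 0.16).

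Outside tumours, Anxa1, Anxa3 and Anxa5 followed Anxa2 from liver to liver. Over the 8 non-tumour livers, each from a different mouse, Anxa2 and Anxa3 correlated at Pearson's r = 0.95 (exact permutation p = 0.000918, adjusted p = 0.00367 over the 8 members compared) and Spearman's rho = 0.90 (exact permutation p = 0.00456, adjusted p = 0.0183). For Anxa5 the values were r = 0.93 (exact permutation p = 0.000744, adjusted p = 0.00367) and rho = 0.95 (exact permutation p = 0.00114, adjusted p = 0.00913). For Anxa1 they were r = 0.90 (exact permutation p = 0.0028, adjusted p = 0.00747) and rho = 0.81 (exact permutation p = 0.0218, adjusted p = 0.0581). These 2-sided tests were added after the values were seen. The share of all genes that followed Anxa2 as closely over these livers was not computed, so the relation is not read as particular to annexins. Outside the members, S100a4 (8.70 and 7.80) and S100a6 (8.94 and 8.28) were also highest in control 10 and adjacent liver 121. S100a1 was highest in control 11 (9.72). Control 10 and adjacent liver 121, the 2 livers farthest from the median of Anxa2, were left out next, and r was 0.86 for Anxa3, 0.93 for Anxa5 and 0.72 for Anxa1 over the other 6. With control and adjacent livers each centred on their own mean, r was 0.99, 0.97 and 0.98, so the relation was as large within the groups. The other 5 members did not pass in these livers: r was 0.44 for S100a10 (exact permutation p = 0.271, adjusted p = 0.465), 0.42 for Anxa7, 0.38 for Anxa4, 0.31 for Anxa6 and -0.20 for Anxa11, with adjusted p from 0.465 to 0.643 by exact permutation.

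Among the 6 tumour mice no member's relation with Anxa2 passed. Anxa4 was at r = 0.76 (exact permutation p = 0.0917, adjusted p = 0.478) and rho = 0.54 (exact permutation p = 0.297), and at r = 0.87 without the tumours of mice 123 and 93. S100a10 was at r = -0.69 (exact permutation p = 0.119, adjusted p = 0.478) and rho = -0.60 (exact permutation p = 0.242), and at r = -0.98 over the 4 tumours left, but at r = -0.44 with only the unnumbered tumour of mouse 121. Anxa1 was at r = 0.56, Anxa3 at 0.41 and Anxa5 at 0.12, and without these 2 tumours at 0.14, -0.15 and -0.83. The difference between tumours and non-tumour livers in these relations was not tested.

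**Figure D4:**
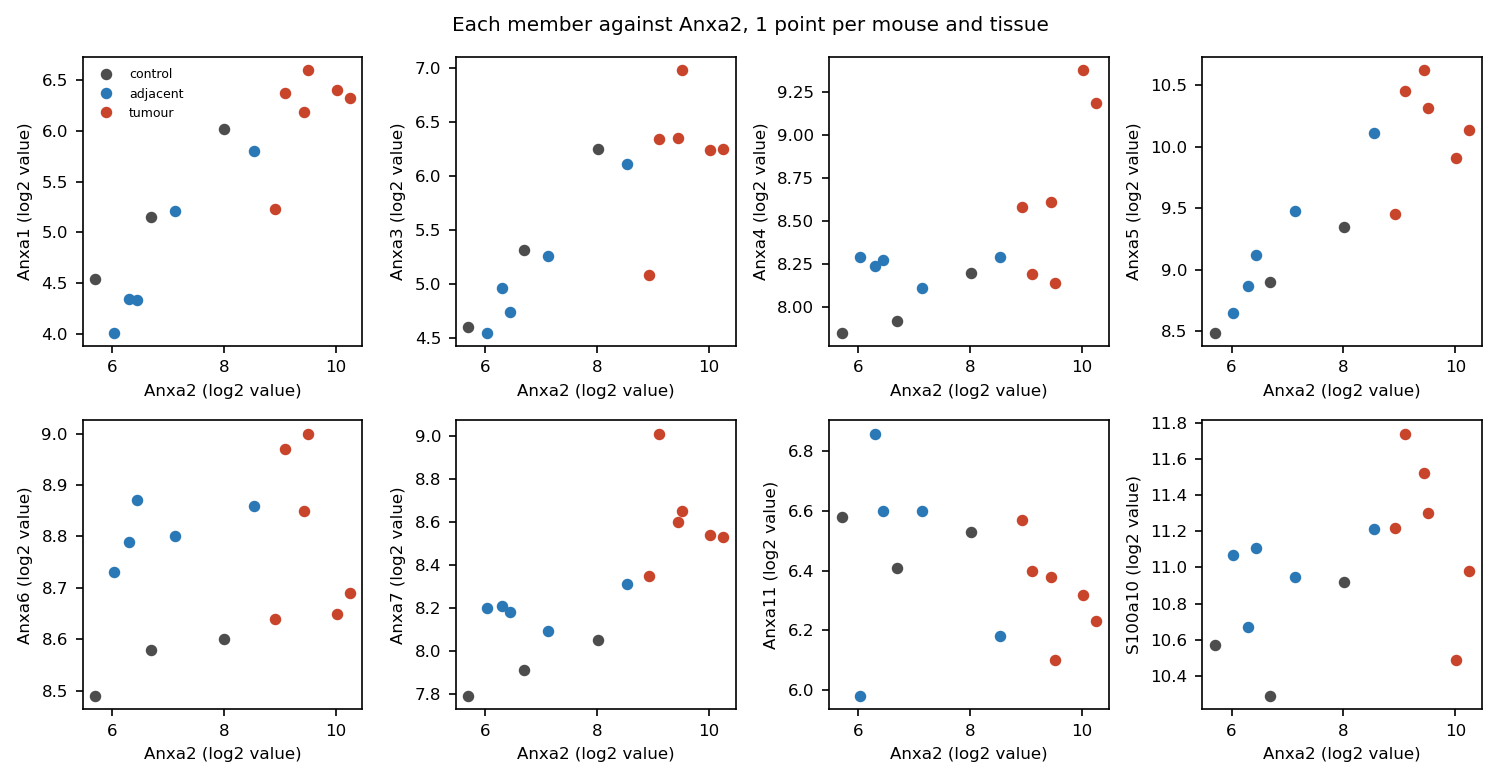
Log2 value of 8 members (vertical axes) against that of Anxa2 (horizontal axes), 1 point per mouse and tissue, coloured by control liver, adjacent liver and tumour. Grey and blue points of Anxa1, Anxa3 and Anxa5 climb with Anxa2 (r of 0.90, 0.95 and 0.93 over 8 livers), and S100a10 there is at r = 0.44. Over the 6 tumour mice r is 0.56, 0.41 and 0.12 for the same 3 genes and -0.69 for S100a10, none of which passed.

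Marker genes of other liver cell types are given beside these values, as the mean log2 level of each list. The 2 livers highest in Anxa1, Anxa2 and Anxa3 outside tumours were control 10 and adjacent liver 121; for Anxa5 adjacent liver 121 was the highest, at 10.11, and control 10, at 9.35, came after adjacent liver 124, at 9.48. Control 10 and adjacent liver 121 were also the highest of the 8 in the macrophage and Kupffer cell list (9 of 10 markers measured), at 8.60 and 6.74, where the other 6 lay at 5.34 to 6.31. In that list adjacent liver 124, next in Anxa2 at 7.13, was at 5.54, above only control 12. The proliferation list (7 of 8) was also highest in control 10 and adjacent liver 121, at 5.05 and 5.0. Adjacent liver 124 came next there, at 4.59. Control 10 was the highest in the neutrophil list (8 of 8 markers) at 5.15, where the other 7 livers lay at 3.20 to 3.44. Adjacent liver 121 was the highest in the lymphocyte list (9 of 10) at 4.98 and in the stellate cell and fibroblast list (10 of 10) at 6.64. In tumours the macrophage and Kupffer cell list ran from 4.74 to 5.94. Of its 9 measured genes, 6 had a lower mean in tumours than in adjacent liver and 3 a higher one, and 0 passed by limma. The largest differences were those of Vsig4 (-2.52), Clec4f (-1.85) and Cd5l (-1.58), genes of resident Kupffer cells, and the 3 on the other side were Cd68 (0.94), Itgam (0.74) and Adgre1 (0.24). Cd68 stood at 7.12 to 9.24 in tumours and at 5.96 to 9.09 in the 8 livers.

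The stellate cell and fibroblast list ran from 6.06 to 6.94 in tumours against 5.51 to 6.64 in adjacent liver and 5.94 to 6.03 in controls. Of its 10 genes, 6 had a higher mean in tumours than in adjacent liver and 4 a lower one. Their log2 differences ran from -1.06 to 1.25, and 0 passed by limma. The cholangiocyte list (6 of 8) ran from 4.55 to 5.22 in tumours, 4.03 to 4.63 in adjacent liver and 4.30 to 4.89 in controls. Here 4 genes had a higher mean in tumours than in adjacent liver and 2 a lower one. The tumours of mice 90 and 123, the highest in Anxa2 and Anxa4, had cholangiocyte list means of 4.92 and 4.97. In both, Cdh1 (9.41 and 9.19) and Sox9 (6.53 and 7.34) lay above the adjacent ranges of 4.88 to 7.22 and 4.68 to 6.09. In controls Cdh1 was at 5.98 to 8.38 and Sox9 at 5.87 to 6.62, so Sox9 in the tumour of mouse 90 lay within the control range. Krt19 (3.40 and 3.73) lay below its adjacent range of 3.96 to 4.5, and Cftr (2.28 and 2.32) below 2.40 to 2.58. Krt7 (4.09 and 3.79) lay within 3.36 to 4.35, and Epcam was at 3.79 and 3.43 beside 3.53 to 4.08. Cdh1 also lay above its adjacent range in the tumours of mice 93, 121 and 124 (7.56, 7.83 and 8.11), but not 81 (6.64). Sox9 did so in those of mice 81 and 124 (6.59 and 6.88), but not 93 and 121 (5.90 and 6.05). The tumour of mouse 81, the lowest in Anxa4, had the highest list mean, 5.22, with Krt7 at 5.65, Krt19 at 5.24 and Epcam at 4.66. The proliferation list (7 of 8) was at 4.33 in the tumour of mouse 90, within the adjacent range of 4.01 to 5.0, and at 5.58 to 6.48 in the other tumours. The endothelial list (8 of 8) ran from 5.70 to 7.15 in tumours and from 6.51 to 6.96 in the 8 livers, but its genes went apart. Between tumour and adjacent liver Emcn (1.69), Pecam1 (1.03) and Cdh5 (0.84) had positive log2 differences, and Clec4g (-2.41), Stab2 (-1.31), Tek (-0.60), Kdr (-0.23) and Lyve1 (-0.10) negative ones. None of the 8 passed, and the smallest limma adjusted p was 0.059, for Emcn. Emcn was at 5.79 to 7.84 in tumours and at 4.84 to 5.84 in the 8 livers. Clec4g was at 3.98, 4.08 and 5.41 in the tumours of mice 81, 90 and 123 and at 7.11 to 8.52 in the other tumours. Its range in the 8 livers was 8.28 to 8.93. These single marker genes were named after their values were seen. Log2 values on these arrays have no true 0, and the part of these cell types in the annexin values was not tested.

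**Figure D5:**
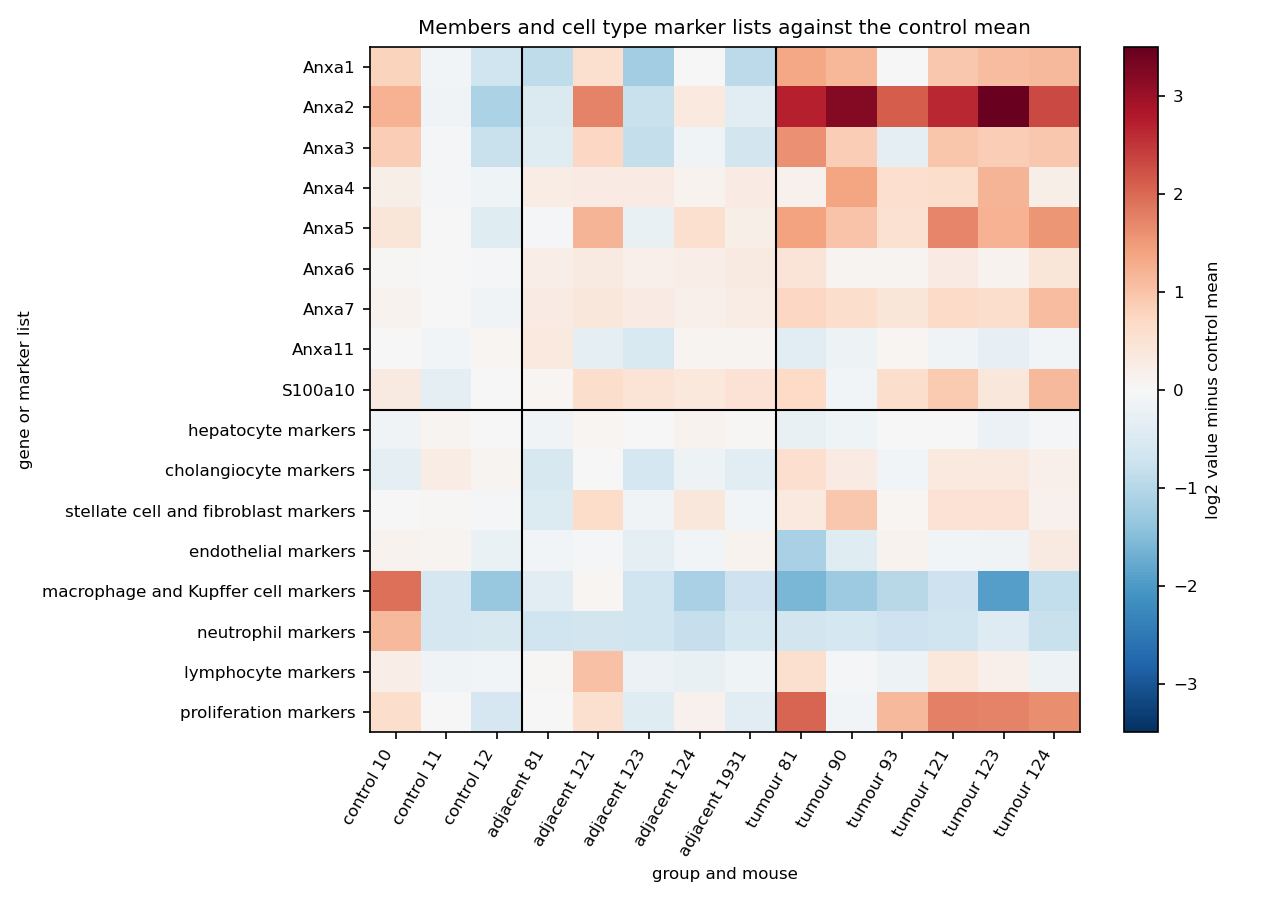
Log2 value minus the mean of the 3 controls (colour scale from -3.5 to 3.5) for the 9 measured genes and for the mean of 8 marker lists, with 1 column per mouse and tissue. The Anxa2 row is red in all 6 tumours, and control 10 stands out in the macrophage and Kupffer cell and neutrophil rows, at 8.60 and 5.15 before subtraction.

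The stretches of genome before the starts of Anxa2, Anxa1, Anxa5 and Anxa7 are shown. The first 3 varied together among non-tumour livers, while Anxa7, which separated the groups, did not pass there. Anxa3, which also followed Anxa2 in those livers, had no match in the promoter set used here and is not shown. Sequences are the 250 bases before the RefSeq start (GRCm38.p6), at chr9:69453433-69453682 on the plus strand for Anxa2, and on the minus strand at chr19:20390672-20390921 for Anxa1, chr3:36475888-36476137 for Anxa5 and chr14:20480134-20480383 for Anxa7. Capitals mark matches to 5 motifs on either strand: the AP-1 motif TGANTCA, the Sp1 motif GGGCGG, the TATA box TATAAA, the TEAD motif CATTCC and the antioxidant response element TGACNNNGC.
Anxa2: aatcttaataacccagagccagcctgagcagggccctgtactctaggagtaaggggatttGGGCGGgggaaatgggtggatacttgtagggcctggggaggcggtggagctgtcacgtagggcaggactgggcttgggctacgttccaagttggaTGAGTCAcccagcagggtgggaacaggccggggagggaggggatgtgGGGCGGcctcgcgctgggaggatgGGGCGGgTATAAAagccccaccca
Anxa1: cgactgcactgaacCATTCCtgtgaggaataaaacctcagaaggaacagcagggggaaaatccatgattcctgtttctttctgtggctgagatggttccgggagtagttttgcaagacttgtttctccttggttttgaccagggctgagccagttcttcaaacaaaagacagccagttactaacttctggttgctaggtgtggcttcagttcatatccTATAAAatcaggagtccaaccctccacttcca
Anxa5: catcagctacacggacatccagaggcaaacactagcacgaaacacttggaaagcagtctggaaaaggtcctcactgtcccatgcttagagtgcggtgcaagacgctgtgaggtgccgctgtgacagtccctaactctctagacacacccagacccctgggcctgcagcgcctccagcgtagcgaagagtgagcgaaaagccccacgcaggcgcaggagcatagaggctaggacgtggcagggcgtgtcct
Anxa7: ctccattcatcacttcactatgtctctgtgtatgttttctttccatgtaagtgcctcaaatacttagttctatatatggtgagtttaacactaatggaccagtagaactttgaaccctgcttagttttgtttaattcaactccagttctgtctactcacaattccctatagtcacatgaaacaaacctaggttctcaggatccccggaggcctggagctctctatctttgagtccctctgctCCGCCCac

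In the Anxa2 window TGAGTCA lies at positions -95 to -89 from the start, GGGCGG occurs 3 times, and TATAAA lies at -17 to -12. Of 32851 such windows in the RefSeq table, 6.75% held the AP-1 motif, 32.7% the Sp1 motif, 12.4% the TATA box, 12.6% the TEAD motif and 10.2% the antioxidant response element. The Anxa1 window held TATAAA at -32 to -27 and CATTCC at -236 to -231, the Anxa5 window held none of the 5, and the Anxa7 window held GGGCGG once, on the opposite strand at -8 to -3. TGACNNNGC was in none of these 4 windows, and none of the matches overlapped. GC content was 62.4% for Anxa2, 46.0% for Anxa1, 58.8% for Anxa5 and 42.4% for Anxa7. A match of letters is no measure of binding, and Anxa1, Anxa2 and Anxa5 shared no motif of the 5 across all 3 windows.

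Among 7650 named genes that spanned at least 1 log2 unit over the 14 mouse and tissue values, the 5 closest to Anxa2 in pattern were Wdr1 (r = 0.966), an actin disassembly factor, App (r = 0.957), the amyloid precursor protein, Plekho1 (r = 0.946), Cep192 (r = 0.946), a centrosome protein, and Gpx7 (r = 0.946), a peroxidase of the endoplasmic reticulum. Among members Anxa1 came closest, at r = 0.911, which placed it at rank 33, followed by Anxa5 at 0.891 and Anxa3 at 0.852. S100a10 ranked 2174 at r = 0.421. The genes closest to S100a10 were Gstm2 (r = 0.906), a glutathione transferase, Hprt (r = 0.881), a purine salvage enzyme, Mapre3 (r = 0.869), Esco2 (r = 0.869) and Abhd4 (r = 0.845), none of which was among the 5 closest to Anxa2. These correlations mix the difference between tissues with the spread inside each and are descriptions of 14 values.

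The remaining genes of the family and its known partners came from 5 lists of 57 genes, of which 51 were measured. None passed between adjacent and control liver (median log2 difference -0.08) or between tumour and control liver (median 0.12). Between tumour and adjacent liver 1 of 51 passed with a rise and 0 with a fall, beside 0.142% and 0.0129% of all genes, and the median was 0.24. The gene that passed was Chmp4b, a subunit of the ESCRT-III complex that seals membranes, which was in the list of membrane repair and calpain genes (1 of 12). Controls were at 7.04 ± 0.22 (SD, n = 3), adjacent livers at 6.80 ± 0.18 (SD, n = 5) and tumours at 7.44 ± 0.13 (SD, n = 6). Its tumour values of 7.30 to 7.64 lay above the adjacent values of 6.59 to 7.0, as for 1.12% of all genes. Control 10, at 7.30, reached the tumour range. Against control the difference was 0.39 (SE 0.14, limma adjusted p = 0.244) in tumours and -0.25 (SE 0.14, limma adjusted p = 0.999) in adjacent liver. The log2 difference between tumour and adjacent liver, 0.64 (SE 0.12, limma adjusted p = 0.0477), lay close to the threshold. It missed in 12 of 14 omissions of 1 mouse, all but those of tumours 90 and 93, with adjusted p from 0.0182 to 0.157 over the 14, and had adjusted p = 0.213 with the mouse as a fixed replicate block. Cav1, the coat protein of caveolae, from the same list but named after its value was seen, was 1.63 (SE 0.31, limma adjusted p = 0.0544) above adjacent liver and higher in 4 of 4 paired mice.

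Of the annexins outside the 10, 0 of 4 passed. Anxa9 averaged 4.06 ± 0.34 (SD, n = 5) beside the tumours and 4.67 ± 0.36 (SD, n = 6) within them, with a difference of 0.61 (SE 0.19, limma adjusted p = 0.145). Anxa8 was at 3.23 or less in all 8 non-tumour livers, at 4.38 in the tumour of mouse 81 and at 2.51 to 3.15 in the other tumour arrays (0.17, SE 0.27, limma adjusted p = 0.825). Its difference was -0.10 without the tumour of mouse 81, 0.27 without that of mouse 90 and 0.10 without adjacent liver 121. Anxa13, an annexin of gut and kidney epithelium named after its value was seen, ran from 4.35 to 8.91 in tumours and from 4.60 to 6.44 in adjacent liver.

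In the S100 list 0 of 15 passed, with a median of 0.10 between tumour and adjacent liver. S100a1 averaged 9.36 ± 0.08 (SD, n = 5) beside the tumours and 8.72 ± 0.92 (SD, n = 6) within them (-0.64, SE 0.33, limma adjusted p = 0.387). The tumour of mouse 123 was at 6.90 and the difference was -0.28 without it. S100a2 was 0.02 (SE 0.10, limma adjusted p = 0.961) apart. S100a6, a partner of several annexins named after its value was seen, stood 2.0 (SE 0.54, limma adjusted p = 0.102) higher in tumours than in adjacent liver, with a step of 0.38 to 3.45 in the 4 paired mice.

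Of the binding partners and receptors 0 of 14 passed, with Ahnak, a giant scaffold that binds the Anxa2 and S100a10 complex, at 1.03 (SE 0.32, limma adjusted p = 0.141) and the membrane repair protein Dysf at 0.34 (SE 0.11, limma adjusted p = 0.16) between tumour and adjacent liver. Of the plasminogen activation genes 0 of 6 passed. Plg, plasminogen itself, was at -0.10 (SE 0.10, limma adjusted p = 0.699; -0.04 without the tumour of mouse 81), and Plat, tissue plasminogen activator, at 1.0 (SE 0.30, limma adjusted p = 0.139). Without tumour 93 the count over the 51 genes was 9 (S100a6, S100g, Ahnak, Plat, Plau, Mvp, Cav1, Cavin1 and Chmp4b), where 3.19% of all genes were called. It was 2 without tumour 90 (Cav1 and Chmp4b), where 0.528% were. It was 0 without any 1 of the other 12 mouse values, that is control 10, 11 or 12, adjacent liver 81, 121, 123, 124 or 1931, or the tumour of mouse 81, 121, 123 or 124. Between tumour and control liver it was 3 without tumour 93 (Plat, Mvp and Cav1), where 1.04% of all genes were called.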

How the data were processed

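RNA of liver and liver tumours was amplified to cDNA, labelled with biotin and hybridised to one-colour arrays, per the labels' protocols. The deposited values are log2 expression values. The submitters' processing notes name RMA and Partek; chip model, probe set definition and build are not given in the sources. The values run from 1.47 to 12.85, with medians of 4.37 to 4.50 per array; the number of arrays limits their precision. RMA compresses changes of dim probe sets and evens out global shifts.

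The platform annotation gave 1 symbol for 23281 of 24479 probe sets and several for 0; the 1198 without one were left out; for 2 symbols with more than 1 probe set the brighter was used. Groups came from the titles. All groups were fitted together with limma 3.58.1 in R 4.3.3 (lmFit, eBayes with an intensity trend), with Benjamini-Hochberg adjustment over 23279 genes; the fit was tested on simulated data. Correlations used exact two-sided permutation tests in Python 3.11.15, adjusted over 8 members. It is unknown if liver 1931 and tumour 93 are of 1 mouse. In 4 animals the mouse number pairs both tissues; deviations of these pairs from the group means correlated at 0.0349 to 0.0998. The labels give no batch.

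The members and lists were chosen with earlier results of these data known. From each partner list the text names genes past the threshold, or else the first 2 measured; others are marked. Alternatives are listed in the closing section. Promoters are from RefSeq (GRCm38.p6), and the table used here matched 7 of the 10 genes; where it held several starts, the most upstream was used.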

Additional observations from a re-analysis of the deposited data

Results flagged for a closer look

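In 34 groups of 5 or 6 values (9 genes and 8 marker lists, adjacent liver and tumours), 3 held a sample far from the others by Dixon's criterion, which chance gives in about 1 of 20 groups. The tumour of mouse 93 was at 5.23 for Anxa1, where the other 5 tumours lay at 6.19 to 6.60. The adjacent liver of mouse 124 was at 8.11 for Anxa4, where the other 4 lay at 8.24 to 8.29. The adjacent liver of mouse 121 was at 4.98 in the lymphocyte marker list, where the other 4 lay at 3.71 to 3.99.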

How the results depend on the processing

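Alternatives were quantile normalization, median centring, a filter on low values that kept 12864 genes, the mean over a gene's probe sets, a fit without the intensity trend, weights for arrays, a fit of only the 2 groups compared, the 8 tumours kept separate, mouse 121 by its unnumbered tumour, the mouse as a replicate block, and each mouse left out. The count of members past the threshold stayed at 0 for adjacent against control liver in all of them.

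For tumour against control liver the count, 0 as reported, was 1 with the filter, 2 with 8 separate tumours, 1 without both control 10 and adjacent liver 121, and 0 to 3 with 1 mouse left out. For tumour against adjacent liver, 1 as reported, it was 0 with median centring, 0 with only the 2 groups compared, 0 with the mouse as a fixed replicate block in the 4 paired mice, 2 without both control 10 and adjacent liver 121, and 0 to 5 with 1 mouse left out; the random replicate block gave 1. The count of partner genes there, 1 as reported, was 0 with median centring, with only the 2 groups compared and with the fixed replicate block. It was 2 with the filter, array weights, the unnumbered tumour and the random replicate block, and 0 to 9 with 1 mouse left out. For tumour against control liver the partner count was 0 to 3 with 1 mouse left out.

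Signs that changed were those of small differences. Anxa6 between tumour and adjacent liver was at 0.03 with quantile normalization, 0.00 with 8 separate tumours, 0.00 with the random block, 0.08 with the fixed block, 0.00 without control 10 and adjacent liver 121, and -0.05 to 0.02 with 1 mouse left out. Between adjacent and control liver, Anxa2 ran from -0.46 to 0.70, Anxa3 from -0.66 to 0.17 and Anxa11 from -0.17 to 0.05 with 1 mouse left out, and Anxa11 was at 0.01 without control 10 and adjacent liver 121. The correlations of Anxa3 and Anxa5 with Anxa2 over the tumours turned to -0.15 and -0.83 without the 2 tumours farthest from the median; the other Pearson correlations of those 6 values kept their sign. With mouse 121 by its unnumbered tumour, leaving out the 2 farthest tumours, there those of mice 93 and 124, turned Anxa1 from 0.66 to -0.06, Anxa3 from 0.52 to -0.69, Anxa5 from 0.39 to -0.04 and Anxa11 from -0.54 to 0.78. For Anxa6 the rank correlation over the 6 tumours was 0.09 where r was -0.33.

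Over all genes the count between tumour and adjacent liver was 36 as reported, 181 with the filter, 136 with array weights, 87 with 8 separate tumours, 157 with the unnumbered tumour, 206 with the random replicate block, 0 with the fixed replicate block, 23 with quantile normalization, 16 with median centring, 8 with only the 2 groups compared and 5 to 743 with 1 mouse left out. Between tumour and control liver it was 6 as reported, 35 with the filter, 31 with 8 separate tumours, 33 with the unnumbered tumour, 24 with the random block, 3 without the trend, 4 with array weights and 0 to 242 with 1 mouse left out. The causes of these shifts were not tested, apart from the fewer genes or samples tested by construction.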

Other observations

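S100g, a small calcium-binding protein that was in the S100 list, was at 3.63 to 3.71 in the 3 control livers, at 4.03 to 4.32 in the 5 adjacent livers and at 4.71 to 8.88 in the 6 tumour mice. The 3 groups did not overlap. Of all genes, 2.18% lay higher in every adjacent than in every control liver, 2.11% in tumour against control and 1.12% in tumour against adjacent liver. All non-tumour values of S100g lay below the median of all values, 4.43, which it exceeded on 6 of 16 arrays. Its log2 differences did not pass. They were 0.51 (SE 0.69, limma adjusted p = 0.999) from control to adjacent liver and 2.51 (SE 0.67, limma adjusted p = 0.146) from control to tumour. From adjacent liver to tumour the difference was 2.0 (SE 0.58, limma adjusted p = 0.124). S100g was named after its values were seen.

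S100a8 and S100a9, the neutrophil alarmins, were highest in control 10, at 8.71 and 10.17, above all tumours, which reached 6.16 and 8.34.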
